A study of Rattus norvegicus with 12 samples.

Results

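The cytosolic ribosome, which makes nearly all of a cell's proteins, is built from ribosomal RNA and ribosomal proteins. RPL genes encode the proteins of its large subunit and RPS genes those of its small subunit. The 49 genes described here are a fixed list of RPL and RPS genes given by human-style Ensembl identifiers (RPLP0, members from RPL3 to RPL38 and from RPS2 to RPS27A, and RPSA). All 49 were found among the 20263 genes of each full table. The rule for the list names genes by identity and uses no measured value, although the family was picked for description with earlier results of these data known. The files do not pair identifiers with symbols, so a value below belongs to an identifier and not to a named subunit, and few identifiers are printed.

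The libraries are labelled H9C2, a line from embryonic rat heart that the labels call cardiomyocytes, of wild-type genotype. All cells were harvested 48 h into treatment, and every group compared here was grown in 100 mM glucose. HG cells received glucose alone, HG-Res cells were also given 5 µM resveratrol, a plant polyphenol, and HG-Res-SIRT7-Inh cells were given 5 µM of an inhibitor on top of resveratrol and are called the inhibitor group. The labels call this inhibitor SIRT7-specific and name it SirReal2, a compound best known as a SIRT2 inhibitor. There were 3 biological replicates per group, and the labels describe no vehicle, no osmotic control and no group given the inhibitor alone. The Ctrl group was kept in 5.5 mM glucose, but the table with its values lists 354 selected genes and holds 0 of the 49, so these genes were not measured here in normal glucose. The identifiers are of human style while the labels give rat and build rn6; which species the values come from was not settled, and markers of cardiomyocytes or other cell types, which need gene names, were not analysed here.

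As background, ribosomal protein genes are transcribed at high rates in growing cells, and their mRNAs are among the most abundant in the cell. Their transcripts begin with a C followed by a run of pyrimidines, the 5′ terminal oligopyrimidine (TOP) tract, through which LARP1 and the mTOR pathway govern their translation as a group. The subunits are needed in equal numbers, and surplus ribosomal proteins are usually degraded. A change in mRNA level is one way in which ribosome supply can be set, beside translation and protein turnover.

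To show what the start of such genes looks like, the 30 bases around the annotated start of 5 rat genes are given, from RefSeq, build GRCr8, 5′ to 3′. Capitals mark the longest run of C and T, and the annotated start is base 16. These are the genes that the list's definition spells out by symbol and that have a single entry; RPS27A has 2 entries and is not shown. The sequences are rat, matched by symbol, whereas 0 of the 49 identifiers matched the rat table, so they are tied to no value.

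Rplp0 (chr12:46718376-46718405, minus strand): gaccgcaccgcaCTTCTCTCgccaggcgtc
Rpl3 (chr7:113507976-113508005, minus strand): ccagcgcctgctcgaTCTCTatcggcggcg
Rpl38 (chr10:100200420-100200449, plus strand): cttcgTTCTTTTTCCgttgttcggtgctcg
Rps2 (chr10:14251833-14251862, plus strand): CCTCTTCTTTTTCTTCgggaaaacacgtga
Rpsa (chr8:128728864-128728893, plus strand): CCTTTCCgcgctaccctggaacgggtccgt

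The longest pyrimidine run was 8, 5, 10, 16 and 7 bases in these windows. It covered the annotated start in Rplp0, Rpl3 and Rps2 and ended before it in Rpl38 and Rpsa. The motif count took 58 rat promoters of 57 symbols within the number ranges of the list's definition, a wider set than the 49 genes. In these, CTTTC lay within 10 bases of the start on the gene's strand in 32.8%, against 2.22% of all 33469 promoters. The motif CTTCC was there in 27.6% against 3.67%, and either motif in 48.3% against 5.78%. On the opposite strand CTTTC was found in 1.72% against 2.39% and CTTCC in 0% against 4.33%. The motifs can overlap in the same run, and a match is a description of these letters, not a mapped TOP tract.

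Together the 49 genes took 5.25% to 7.49% of a library's reads. Their share was 6.93%, 7.49% and 6.45% in HG replicates 1 to 3, and 6.21%, 6.42% and 6.65% in HG-Res. In the inhibitor group it was 6.10%, 5.65% and 5.25%. The 3 libraries with the inhibitor were below all 6 others, while HG and HG-Res overlapped. The means were 6.96 ± 0.521%, 6.43 ± 0.216% and 5.67 ± 0.427% (SD, n = 3). A share is relative to the rest of the library: a fall can come from less of these mRNAs or from more of other RNA, and in bulk cultures less RNA per cell and fewer cells of one kind cannot be told apart.

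The approximate depth was read from the step of which low values are whole multiples. It was 31.8, 33.17 and 31.11 M reads for the HG libraries. The HG-Res libraries had 31.44, 31.62 and 31.91 M reads, and those of the inhibitor group 31.94, 31.15 and 30.29 M reads. Within each of the 3 groups the order of the libraries by share was their order by depth. Across groups it was not, since inhibitor replicate 1 was deeper than HG replicate 3 and had a lower share. With depth as a covariate in the model, chosen after seeing the data, the median change of the 49 genes was -0.07 instead of -0.12 (log2) for HG-Res against HG. It was -0.13 instead of -0.20 for the inhibitor group against HG-Res, and -0.17 instead of -0.27 for the inhibitor group against HG. All 3 stayed below zero. The lowest value of any of the 49 genes in any library stood for about 3378 reads, a counting error of 1.72%.

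**Figure D1:**
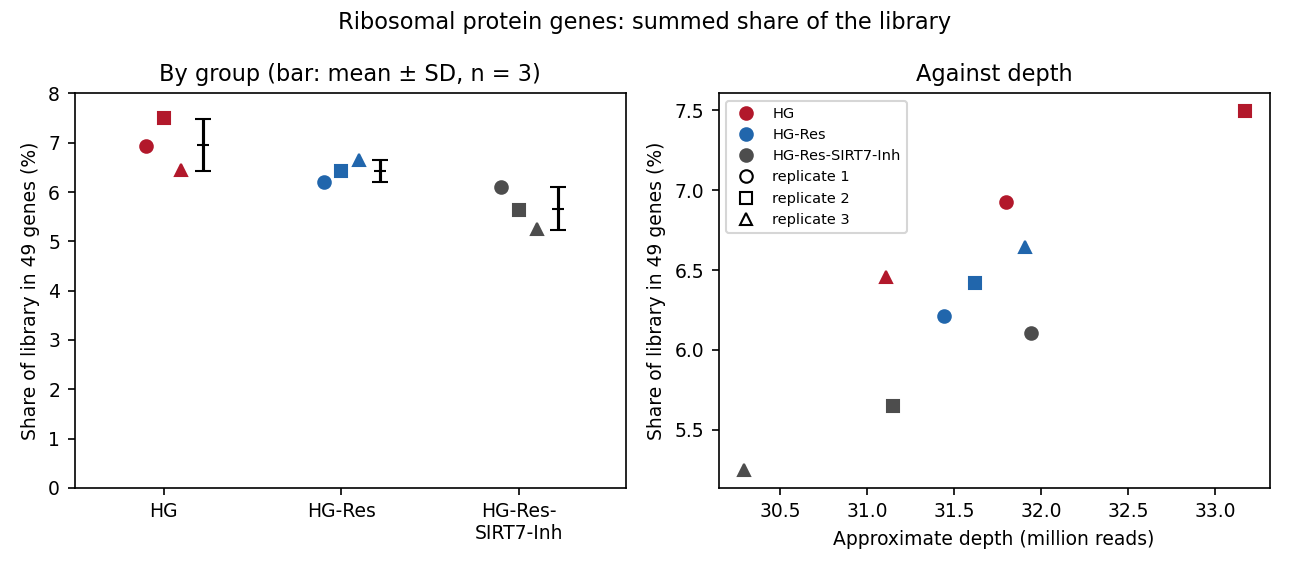
Summed share of the library in the 49 ribosomal protein genes (percent, vertical axes) by group with mean ± SD (left, n = 3) and against approximate depth in M reads (right); points are libraries and shapes are replicate numbers. The 3 HG-Res-SIRT7-Inh libraries lie between 5.25% and 6.10%, below the other 6, and within each group deeper libraries have the higher share.

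Relative to its own mean over the 9 libraries, the median gene stood at 0.15, 0.25 and 0.00 (log2) in HG replicates 1 to 3, at -0.04, 0.02 and 0.08 in HG-Res, and at -0.06, -0.16 and -0.30 in the inhibitor group. The median over all 12854 genes tested stayed between -0.02 and 0.04 in the same libraries. The number of the 49 genes above their mean was 44, 48 and 24 in HG, 16, 28 and 44 in HG-Res, and 14, 3 and 9 in the inhibitor group. HG replicate 3 and HG-Res replicate 2 were thus near an even split, and the other 7 libraries leaned to one side. HG replicate 2 held the highest value of 41 genes, and inhibitor replicate 3 the lowest of 30. These 2 libraries also stood apart over all genes, whose deviations had an interquartile range of 0.375 and 0.704 there and of 0.192 to 0.282 in the other 7, and results are given with and without them.

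As a description over the same 9 libraries, the log2 level of 37 of the 49 genes correlated with the mean of the list at r over 0.7 (75.5%), where the gene itself is part of the mean. Among the 12805 other genes tested, 14.7% did so, and the 5 most like had r of 0.982 to 0.992. The exception at the other end was ENSG00000110700, with r = -0.40. The points share libraries and depth.

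**Figure D2:**
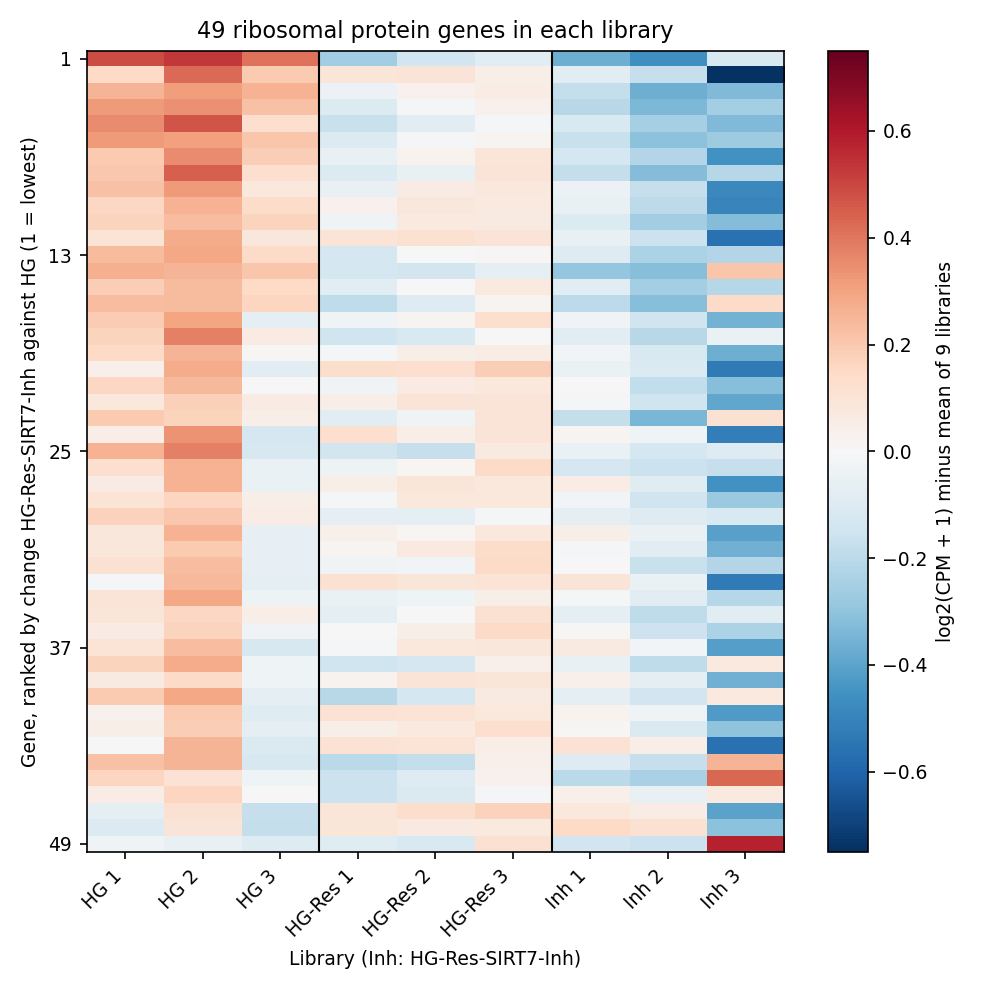
Each row is 1 of the 49 genes, ranked by its change in HG-Res-SIRT7-Inh against HG, and each column a library; colour is log2(CPM + 1) minus the gene's mean over the 9 libraries (CPM, a gene's reads relative to the library total). HG replicate 2 is above the mean in 48 rows, and HG-Res-SIRT7-Inh replicate 3 holds both the lowest and the highest values.

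The first comparison asked how resveratrol changed these genes in high glucose. In limma at an adjusted p of 0.05, 1 of the 49 genes fell in HG-Res (2.04%, beside 0.381% of all genes tested) and 0 rose (beside 0.327%). At an unadjusted p under 0.05, 13 were lower and 0 higher, where 5.66% of all genes were lower and 4.99% higher. The median change was -0.12 (log2, quartiles -0.23 to -0.02) beside 0.00 for all genes, a fold of 0.918, and 38 of the 49 were below zero. Replicate values did not overlap in 17 genes, all lower in HG-Res (34.7% beside 14.8% of all genes), and in 0 genes in the other direction (beside 15%).

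The gene that fell, ENSG00000138326, was at 520, 535 and 491 CPM in HG and at 308, 335 and 349 CPM in HG-Res. The lowest HG library was thus well above the highest HG-Res library. The means were 515 ± 22.5 and 330 ± 21 CPM (SD, n = 3). The change on the log2 scale was -0.64 ± 0.11 (SE, limma adjusted p = 0.0338). In the authors' deposited table the log2 fold change of this gene was -0.63 with a q-value of 5.16e-08, and it was the only one of the 49 marked there. By q-value alone, 7 of the 49 were lower in that table, beside 3.8% of all genes. The adjusted p ranged from 0.00157 to 0.209 over the limma alternatives, and the call was lost under median-of-ratios (0.0561) or TMM scaling (0.0647) and with the replicate block (0.0818). In these fits 0 of the 49 fell, beside 0.335%, 0.32% and 0.171% of all genes. It was also lost when any single library of HG or of HG-Res was left out (0.118 to 0.209), or replicate 2 of the inhibitor group (0.0557).

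At the upper end of the 49 stood ENSG00000083845, with 864, 983 and 803 CPM in HG and 967, 994 and 1022 CPM in HG-Res. Its groups overlapped, since HG replicate 2 was above HG-Res replicate 1, and its change was 0.18 ± 0.13 (SE, limma adjusted p = 0.737). Next to it was ENSG00000108107, at 211, 241 and 199 CPM in HG and 241, 237 and 238 CPM in HG-Res, a change of 0.14 ± 0.13 (limma adjusted p = 0.804). In both, HG replicate 2 alone reached the HG-Res level.

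Without the 2 libraries that stood apart the pattern was mixed: 7 of the 49 fell, beside 10.1% of all genes, and 2 rose, beside 11.3%. The 2 that rose were ENSG00000083845, by 0.26 ± 0.06, and ENSG00000108107, by 0.22 ± 0.05 (SE, limma adjusted p = 0.0159 and 0.0235). Only HG replicate 2 had reached the HG-Res level in these genes, so leaving it out parts their groups by itself. With that library alone left out, neither passed (limma adjusted p = 0.534 and 0.56). ENSG00000138326 still fell (-0.61 ± 0.07, limma adjusted p = 0.00157). The median change was then -0.06, close to the -0.03 of all genes, and 30 of the 49 genes were below zero. The count of genes that fell was 7 without inhibitor replicate 3 alone, where 2.97% of all genes fell, 5 with the 2 groups alone in the fit, where 2.27% did, and 6 with the depth covariate, where 6.39% did.

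The second comparison was of the inhibitor group with HG-Res, whose cells differ by the inhibitor. At limma's adjusted p of 0.05, 0 of the 49 genes fell, beside 4.19% of all genes tested, and 0 rose, beside 1.88%. By q-value, the authors' deposited table had 0 of them lower (beside 5.38%) and 0 higher (beside 3.31%). At an unadjusted p under 0.05, 11 were lower and 0 higher, where 12% of all genes were lower and 12.7% higher. The median change was -0.20 (log2, quartiles -0.24 to -0.09), a fold of 0.873, while the median of all genes was 0.04. As many as 43 of the 49 were below zero (87.8%), against 45% of all genes. Replicate values did not overlap in 21 genes, all lower with the inhibitor (42.9% beside 16% of all genes), and in 0 genes in the other direction (beside 17.7%).

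The gene closest to the threshold was ENSG00000142676, at 768, 810 and 824 CPM in HG-Res and at 700, 616 and 631 CPM with the inhibitor. All 3 libraries with the inhibitor were below the HG-Res libraries. The change was -0.30 ± 0.08 (SE, limma adjusted p = 0.0603). ENSG00000138326, the gene lower with resveratrol, was at 286, 269 and 341 CPM with the inhibitor, overlapping HG-Res, with a difference of -0.15 ± 0.11 (SE, limma adjusted p = 0.382).

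The counts were larger with some libraries left out, where the share of all genes that fell was above 4.19% too. Without inhibitor replicate 1, 6 of the 49 fell (beside 7.36% of all genes). Without replicate 3, 1 of the 49 fell, a smaller share than the 5.7% of all genes. Without the 2 libraries that stood apart, 11 fell (9.23%), ENSG00000142676 among them (-0.29 ± 0.07, SE, limma adjusted p = 0.0191), and 47 of the 49 were below zero with a median of -0.13. With the depth covariate 4 of the 49 fell, a share close to the 8.36% of all genes.

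The third comparison was of the inhibitor group with HG, which differ by both compounds; it shares its libraries with the other comparisons and is not independent of them. In limma 13 of the 49 genes fell at an adjusted p of 0.05 and 0 rose. That is 26.5% of the list, beside 6.5% of all genes that fell and 4.27% that rose. At an unadjusted p under 0.05, 27 were lower and 0 higher, where 13.8% of all genes were lower and 14.1% higher. The 13 changes ran from -0.79 to -0.38 (log2) and their adjusted p from 0.00213 to 0.0427, and none of the 13 had overlapping groups. The median change of the 49 was -0.27 (quartiles -0.41 to -0.20), a fold of 0.832, beside a median of 0.04 for all genes. Of the 49, 47 were below zero. Without the 2 libraries that stood apart the median was -0.17, beside 0.01 for all genes, and 42 were below zero. Replicate values were fully apart in 24, all lower (49% beside 15.3% of all genes), and in 0 higher (beside 12.8%).

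ENSG00000138326 had the largest fall in the list, from the HG values above to a mean of 299 ± 37.9 CPM (SD, n = 3), a change of -0.79 ± 0.11 (SE, limma adjusted p = 0.00213). The fall passed the threshold in all 20 alternatives, at adjusted p or q from 0.00011 to 0.0205. ENSG00000142676 was at 947, 985 and 949 CPM in HG, and the 3 libraries with the inhibitor, at 616 to 700 CPM, lay far below. Its means were 960 ± 21.1 and 649 ± 45.1 CPM (SD, n = 3) and its change -0.57 ± 0.08 (SE, limma adjusted p = 0.00278). It too passed in all 20 alternatives. The HG-Res mean of this gene, 801 ± 29.4 CPM, lay between the other groups with no overlap on either side. In the authors' deposited tables the log2 fold changes of these 2 genes against HG were -0.80 and -0.58, with q-values of 0.000251 and 0.00348. ENSG00000138326 was marked there as lower, while ENSG00000142676 was not marked.

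**Figure D3:**
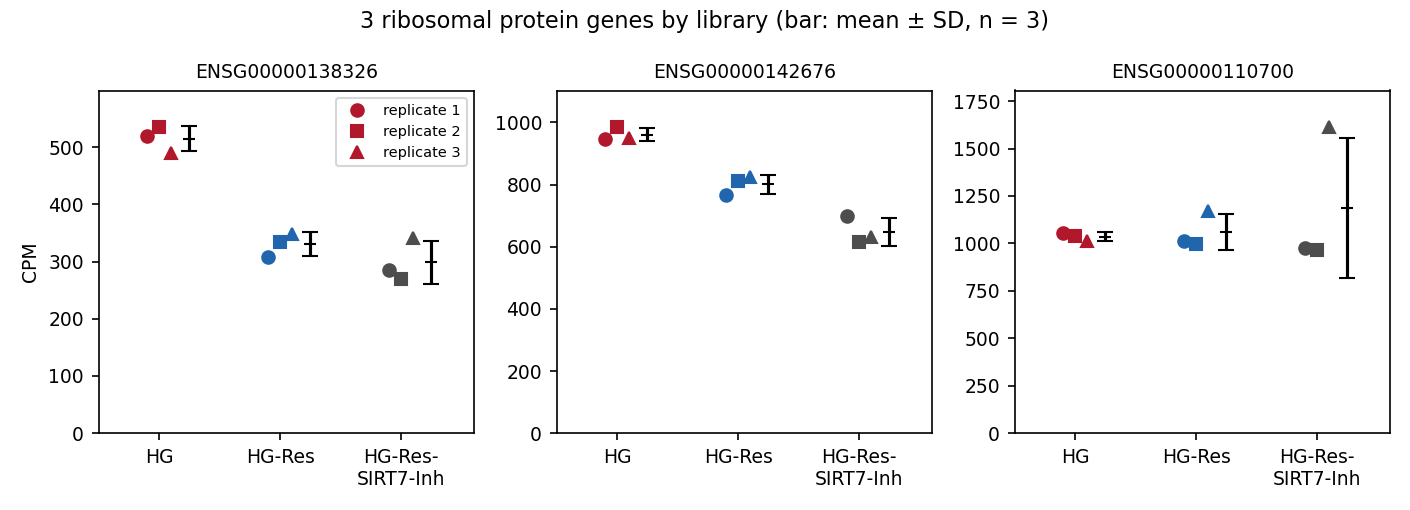
CPM of 3 ribosomal protein genes (vertical axes start at 0) in each library, with the mean ± SD of each group (n = 3). ENSG00000138326 and ENSG00000142676 are lower in every HG-Res-SIRT7-Inh library than in every HG library, whereas ENSG00000110700 lies between 967 and 1171 CPM in all libraries except HG-Res-SIRT7-Inh replicate 3, at 1612 CPM.

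The number that fell was 20 without inhibitor replicate 3 (beside 10.5% of all genes), and 6 without replicate 2 (3.51%). It was 5, 6 and 8 without HG replicate 1, HG replicate 2 and HG-Res replicate 2 (3%, 3.79% and 4.32%), and 4 with the 2 groups alone in the fit (2.47%), while the authors' q-values called 7 of the 13 (4.85%). Without the 2 libraries that stood apart, 20 fell (14.5%), among them all 13, and 2 rose (16.7%): ENSG00000108107 by 0.27 ± 0.06 and ENSG00000083845 by 0.19 ± 0.06 (SE, limma adjusted p = 0.00843 and 0.043). With these 2 libraries kept, the changes of these genes were 0.05 and -0.05 (limma adjusted p = 0.832 and 0.842). With depth as a covariate 14 fell (11.4%), again with all 13 among them, and with the replicate block 10 fell (5.38%).

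**Figure D4:**
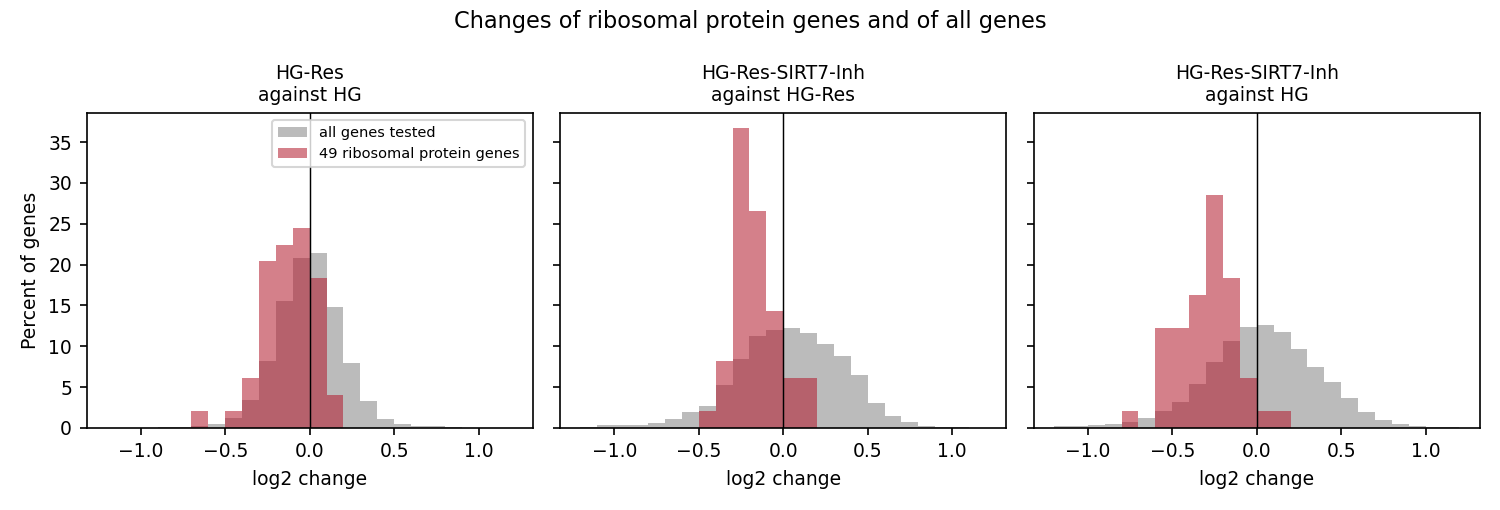
Percent of genes (vertical axis) by log2 change (horizontal axis, bins of 0.1) for the 49 ribosomal protein genes in red and all 12854 genes tested in grey; changes beyond 1.2 are not drawn. The red bars lie left of zero for 38, 43 and 47 of the 49 genes in the 3 comparisons, from left to right.

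The scale of the libraries differed little, with median-of-ratios factors of 0.984 to 1.031. The median changes of the 49 genes in the 3 comparisons, in the order above, were -0.10, -0.23 and -0.28 with median-of-ratios scaling. They were -0.10, -0.24 and -0.28 with TMM scaling, and -0.13, -0.21 and -0.29 when each library was scaled to its total without the 49 genes. The third comparison kept 13 genes that fell under each of these scalings, beside 6.65%, 6.53% and 6.78% of all genes, and they were the same 13.

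The genes did not keep together in inhibitor replicate 3. Against the mean of replicates 1 and 2, 14 of the 49 were higher there, by 0.02 to 0.73 (log2), and 35 lower, with differences of -0.64 to -0.01. The gene highest there, ENSG00000110700, stood at 978 and 967 CPM in replicates 1 and 2 and at 1612 CPM in replicate 3. The lowest, ENSG00000115268, was at 751 and 721 CPM and then at 471 CPM. The interquartile range of these differences was 0.416 over the 49 genes and 0.743 over all genes tested, so the library departed over all genes and not in this family alone. In the 5 comparable differences within HG and HG-Res other than HG replicate 2, the interquartile range over the 49 genes was 0.0641 to 0.132. It was 0.151 for HG replicate 2, and 0.211 and 0.215 for inhibitor replicates 1 and 2, whose differences include replicate 3.

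The 14 genes that were higher made up 0.974%, 0.914% and 1.23% of the reads of inhibitor replicates 1, 2 and 3. The other 35 made up 5.13%, 4.73% and 4.02%. The 2 sets were split by their values in replicate 3, so these shares only describe the split. ENSG00000110700 and ENSG00000108107 were the 2 of the 49 above zero against HG, at 0.15 ± 0.18 (SE, limma adjusted p = 0.596) and 0.05. Without this library ENSG00000110700 was below zero (-0.09, limma adjusted p = 0.425).

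HG replicate 2 departed from its group in the opposite sense. All 49 genes were higher there than the mean of HG replicates 1 and 3, by 0.01 to 0.38 (median 0.19). By the same measure, all 49 were lower in HG replicate 3 than in the other HG libraries (median -0.18). In inhibitor replicate 1, 41 of the 49 were higher than in the rest of its group (median 0.19). Genes lower in inhibitor replicate 3 tended to be higher in HG replicate 2. Across the 49 genes the correlation of the 2 differences was r = -0.61 (Spearman -0.57), and across all genes tested it was r = -0.69. These are correlations across genes of 2 pairs of library differences, with no library in common, and genes are not independent replicates. The change of inhibitor replicates 1 and 2 from HG replicates 1 and 3 was also set against the difference of inhibitor replicate 3. Across the 49 genes r was -0.53 (Spearman -0.60). Inhibitor replicates 1 and 2 enter both measures with opposite sign, which alone pulls r below zero, so this value cannot show a shared axis. Its part in the group differences was otherwise not tested beyond the fits without HG replicate 2 and inhibitor replicate 3.

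**Figure D5:**
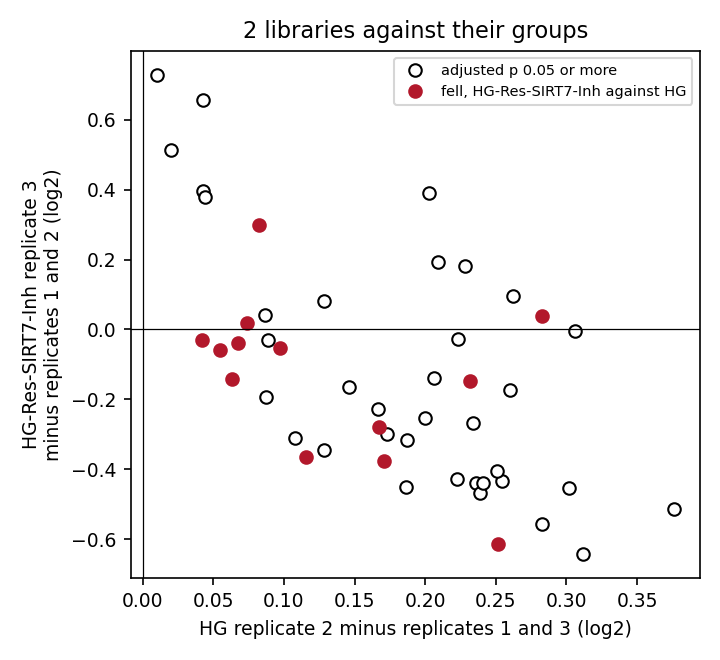
For each of the 49 genes, the log2 difference of HG-Res-SIRT7-Inh replicate 3 from replicates 1 and 2 (vertical axis) against that of HG replicate 2 from replicates 1 and 3 (horizontal axis); filled points fell in HG-Res-SIRT7-Inh against HG. All points lie right of zero, 14 lie above zero and 35 below, with r = -0.61 across the genes.

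The spread between replicates of these genes was close to that of genes at large in HG, with a lower median in the other groups. The median SD over replicates (log2) was 0.124 for the 49 genes and 0.132 for all genes in HG, 0.0583 and 0.0713 in HG-Res, and 0.178 and 0.242 in the inhibitor group. The 49 genes and all genes were not matched for abundance here.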

How the data were processed

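RNA of 12 libraries (4 groups of 3) was poly(A)-selected and sequenced in 150 bp paired ends, per the labels' protocols. Per the submitters' processing notes, Trimmomatic and build rn6 were used; no aligner, counter, annotation or test is named there (not given in the sources used here). The deposited value columns are headed TPM, but low values of a library are whole multiples of 1 step, so the authors' values were treated as CPM. Between 99.3% and 100% of low values lay within the rounding of 0.005 of such a multiple, which gave the approximate depth; a stricter check did not recover whole reads, so no count test, voom included, was run. The authors' deposited tables also hold, per gene, the log2 fold change with its p-value and q-value. CPM is not scaled by length, so levels were compared between libraries and never between genes.

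Genes that reached 0.5 CPM in 3 or more of the 9 libraries with high glucose (12854) were fitted as log2(CPM + 1) with limma 3.58.1 in R 4.3.3: group means, 1 fit over 3 groups, intensity trend, Benjamini-Hochberg adjustment over all genes at 0.05. All 49 genes passed the filter, with means over the libraries of 131 to 4168 CPM. The shares of all genes printed beside theirs were not matched for abundance. Groups follow the titles; the p-values measure the spread between samples labelled biological replicates. No 2 libraries were identical (0 pairs). The fit was tested on simulated counts, drawn independently for each gene with libraries of equal expected depth. Those lack the departures of single libraries described above, so that run says nothing on them. The family, the lists and the alternatives were chosen with earlier results of these data known, although the rule for the 49 genes uses no measured value. The naming rule (members past the threshold and at the extremes of each comparison) was cut to at most 2 identifiers per direction because the files give no symbols; which ones to keep, and those printed for inhibitor replicate 3, was decided after their values were seen. Lists of translation factors, other ribosomal proteins, mitochondrial ribosomal proteins and cell type markers, written as symbols, could not be matched and were not analysed here. Alternatives were other scalings, filters and pseudocount, a replicate block, 2 groups alone, the authors' q-values, libraries left out and a depth covariate.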

Additional observations from a re-analysis of the deposited data

How the results depend on the processing

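The median change of the 49 genes was computed under 15 alternatives and kept its sign in each comparison. It ran from -0.17 to -0.06 for HG-Res against HG. With the inhibitor it ran from -0.26 to -0.13 against HG-Res and from -0.32 to -0.17 against HG. Leaving out a library of the group not compared cannot move the median, so those fits do not test it. Counts past the threshold depended on the setting, and so did the share of all genes called, given in brackets. Between HG-Res and HG (1 gene, 0.708%) the count was 0 with median-of-ratios (0.678%) or TMM scaling (0.686%) or the replicate block (0.35%). It was 5 with the 2 groups alone (4.84%), 7 by the authors' q-values (8.47%) and 6 with the depth covariate (11.1%). It was 9 (7 lower, 2 higher) without both libraries that stood apart, replicate 2 of HG and replicate 3 of HG-Res-SIRT7-Inh (the inhibitor group), where 21.5% of all genes were called. Between the inhibitor group and HG-Res (0, 6.07%) it was 11 without both libraries (18.9%) and 4 with the depth covariate (16.4%). Between the inhibitor group and HG (13, 10.8%) it was 4 with the 2 groups alone (3.32%), 7 by the authors' q-values (7.84%) and 22 (20 lower, 2 higher) without both libraries (31.2%). Leaving out 1 library gave 0 to 7, 0 to 6 and 5 to 20, while the share of all genes ran from 0.148% to 6.24%, from 2.11% to 13.8% and from 4.24% to 21%. ENSG00000110700 against HG ranged from -0.09 to 0.28 when 1 library was left out and was -0.09 without both. Without inhibitor replicate 3 alone it was -0.091. The cause was not tested.

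Whether replicate numbers pair the samples was not settled. Same-numbered libraries of 2 groups deviated together with r from -0.55 to 0.64, and differently numbered ones were not compared. With the replicate block the counts were 0, 0 and 10, and 0.35%, 5.05% and 8.65% of all genes were called. Leaving out a library of a group of 3 also removes degrees of freedom. Under the alternatives run, the share of the library ran from 6.69% to 7.21% in HG and from 6.32% to 6.53% in HG-Res. In the inhibitor group it ran from 5.45% to 5.87%. A mean of 3 libraries cannot move by 1 SD when 1 is left out, so these ranges are a description. The depth covariate was added after seeing the data. Depth itself is approximate. The planned voom or quasi-likelihood fit on recovered reads was not run.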
